A study of Mus musculus with 144 samples.

Results

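The nuclear genes of respiratory complex I were followed in mouse blood through 42 genes whose symbols begin with Ndufa, Ndufb, Ndufc, Ndufs or Ndufv. They were found as the 45 probe sets annotated to exactly 1 such symbol, out of 23521 probe sets that stand for 22180 genes. Where a gene had more than 1 probe set, the brightest one stood for it. By role, 32 of the 42 genes encode subunits of the enzyme, of which 6 are core subunits, 8 are assembly factors named Ndufaf, and 2, Ndufa4 and Ndufa4l2, carry the name but are placed in or near complex IV. Ndufs6, Ndufb1, Ndufb2 and Ndufb4 did not meet this rule and are not analysed here.

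The blood came from male C57BL/J6 mice that were 7 weeks old when obtained. Each mouse had taken into the lung, by aspiration from the back of the tongue, either dispersion medium (DM, buffered saline with glucose, mouse serum albumin and a lung phospholipid, which was also the carrier of both fibres), or multi-walled carbon nanotubes (MWCNT) at a dose of 1, 10, 40 or 80 µg, or crocidolite asbestos at 120 µg. RNA was taken 1, 6 or 12 months post-exposure and hybridized to Mouse Gene ST 2.1 arrays, which gave 18 groups of 6 to 9 mice. The source of the RNA was whole blood, so a transcript's level follows both the cells present and the RNA in each of them, and fewer cells of a type cannot be told apart from less RNA per cell. Values are log2 intensities from the robust multi-array average (RMA), a method that corrects background, equalizes the arrays and combines the probes of a probe set. Probe sets differ in brightness for reasons of probe chemistry, so a gene is compared between groups here and not with another gene. Red cells that have lost their mitochondria were part of these samples, and the markers of reticulocytes, platelets and white cells were read beside the results.

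Complex I is the entry point of electrons from NADH into the mitochondrial respiratory chain, and it pumps protons across the inner membrane while it passes the electrons to ubiquinone. Its peripheral arm reaches into the matrix and holds the flavin and the iron-sulfur clusters, and its membrane arm holds the proton channels, whose central parts are encoded by the mitochondrial genome. Around the core subunits sit accessory subunits, which are needed for stability and assembly, and separate assembly factors join the modules without staying in the finished enzyme. In blood, platelets, lymphocytes and monocytes carry mitochondria, and reticulocytes lose theirs as they mature.

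Short windows around the start sites of 5 subunits that were lower 12 months post-exposure are shown because their start regions hold letters bound by factors known to act on respiratory chain genes. The windows are RefSeq sequence of build GRCm38.p6, and capitals mark the searched letters. YY1, a zinc finger factor, was searched as AAGATGGCG and GABPA, an ETS factor, as CCGGAAG or its reverse complement CTTCCGG.
Ndufs7, chr10:80249465-80249489, plus strand: ccgaggccAAGATGGCGgcgctggc
Ndufa9, chr6:126849099-126849123, minus strand: tgtgggagAAGATGGCGgccgccgt
Ndufs4, chr13:114388045-114388069, minus strand: tgcctacaggAAGATGGCGgcggtc
Ndufs8, chr19:3912744-3912768, minus strand: aggctccgcCTTCCGGttgaaccgc
The window of Ndufa8 is the 120 bases before its start site, where capitals mark the palindrome CGCATGCG of NRF1, a factor known as an activator of respiratory chain genes.
Ndufa8, chr2:36049339-36049458, minus strand: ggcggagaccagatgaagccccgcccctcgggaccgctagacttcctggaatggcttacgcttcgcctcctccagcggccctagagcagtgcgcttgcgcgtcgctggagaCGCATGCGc

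Promoter entries, 250 bases before to 50 bases after a start site, were found for 29 of the 32 subunits. On either strand, the YY1 letters lay in 4 of the 29 (Ndufa9, Ndufc1, Ndufs4 and Ndufs7), against 1.64% of 27025 genes with an entry. The GABPA letters lay in 4 of the 29 (Ndufb6, Ndufb7, Ndufs3 and Ndufs8), against 9.93% of all genes. The NRF1 letters lay in Ndufa8 and Ndufa11, 2 of the 29, against 2.07% of all genes, and the letters TCAAGGTCA of the receptor ESRRA lay in 0 of the 29, against 0.47% of all genes. The YY1 letters of Ndufs7, Ndufa9 and Ndufs4 began 25, 30 and 36 bases after the start site, those of GABPA in Ndufs8 16 bases after it, and those of NRF1 in Ndufa8 9 bases before it. No subunit held the letters of more than 1 factor. These matches describe the letters and were not tested for binding.

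The signal of 31 of the 32 subunits lay above 1.51, the 90th percentile of the mean levels of olfactory receptor probe sets, which served as a mark for dim signal. Ndufs5, a membrane arm subunit on the intermembrane side, was the exception at 1.29. Of the assembly factors 5 of 8 lay above the mark, and Ndufaf2 at 1.14, Ndufaf5 at 1.29 and Ndufaf6 at 1.47 lay under it. The brightest probe sets were those of Ndufa3 at 9.83, Ndufb9 at 8.89 and Ndufa4 at 7.88, and the dimmest was that of Ndufa4l2 at 1.07. All subunits called different from DM in a comparison named below had a mean level over 3.

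Taken as a mean over the 32 subunits, the level in DM mice was 4.23 ± 0.12 (SD, n = 7) at 1 month, 4.16 ± 0.20 (SD, n = 8) at 6 months and 4.48 ± 0.21 (SD, n = 8) at 12 months. At 12 months, the mean was 4.33 ± 0.20 (SD, n = 9) after 1 µg, 4.02 ± 0.19 (SD, n = 8) after 10 µg, 4.14 ± 0.39 (SD, n = 7) after 40 µg and 4.18 ± 0.23 (SD, n = 8) after 80 µg of MWCNT, and 3.98 ± 0.31 (SD, n = 8) after crocidolite. DM mice of 12 months therefore had the highest mean of the 18 groups and crocidolite mice of 12 months the lowest, while the ranges of single mice overlapped. Gene by gene, DM of 12 months was the highest of the 18 groups for 20 of the 32 subunits, crocidolite of 12 months the lowest for 15 and 10 µg of 12 months the lowest for 7.

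**Figure D1:**
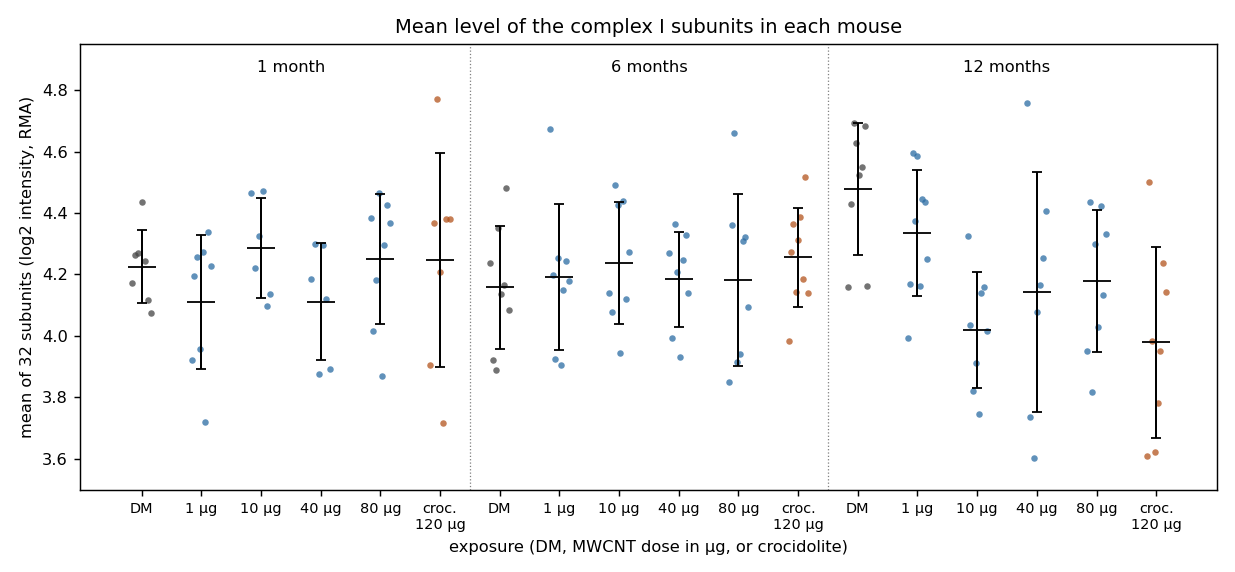
Mean log2 intensity of the 32 complex I subunits in each mouse (points), by exposure and month, with the group mean and SD (bars). DM mice of 12 months lie highest, at 4.48 ± 0.21, and crocidolite mice of 12 months lowest, at 3.98 ± 0.31, with overlapping ranges.

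The next question was whether the subunits differed from DM of the same month, by dose and time. A probe set was called at a limma adjusted p under 0.10, with Benjamini-Hochberg adjustment over all 23521 probe sets. At 1 and 6 months post-exposure, 0 of the 32 subunits were called by limma for any MWCNT dose, crocidolite or the dose trend. The same held over all probe sets, of which 0% were called in each of these comparisons except 1 µg at 1 month with 0.0085%. At an unadjusted p under 0.05, at most 1 subunit was lower and at most 1 higher in any of these 10 comparisons with DM and 2 trends. Counts at this unadjusted threshold, here and below, are given without the share of all probe sets that passed it. They only describe the subunits and do not show an excess over that share. The methods' analysis of variance called 0 in each of the 10. The median log2 difference of the subunits from DM lay between -0.15, for 40 µg at 1 month, and 0.09, for crocidolite at 6 months.

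**Figure D2:**
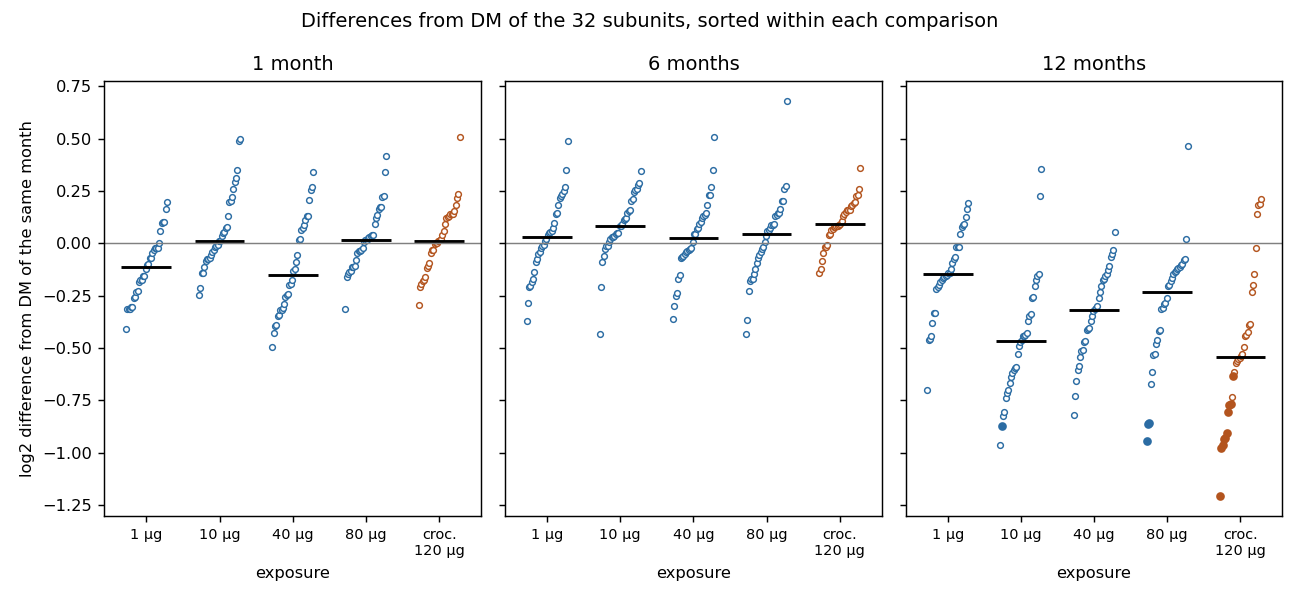
Log2 difference of each of the 32 subunits from DM of the same month, sorted within each exposure, with the median (black line). Filled points passed an adjusted p of 0.10. The medians lie between -0.15 and 0.09 at 1 and 6 months. At 12 months all 5 lie below 0, from -0.15 at 1 µg to -0.54 with crocidolite, so that of 1 µg does not lie apart from the earlier months.

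At 12 months post-exposure, MWCNT mice had lower levels of several subunits, most of them of the peripheral arm. In the dose trend fitted over DM and the 4 doses, 7 of the 32 subunits fell, 0 rose, and 31 had a value below 0. With DM left out, the slope over the 4 doses was called for 0 of the 32 by limma. The 7 were the core subunits Ndufs7, Ndufs8 and Ndufv2, the peripheral arm subunits Ndufa2, Ndufa9 and Ndufv3, and Ndufa8 of the membrane arm. Among all probe sets 5.07% fell in this trend, and among those brighter than the olfactory receptor mark 9.53%. The median trend of the subunits, as the log2 change from DM to 80 µg on a line fitted to the logarithm of the dose, was -0.28, against -0.02 over all probe sets tested. With 80 µg alone set against DM, 3 of the 32 fell (Ndufa9, Ndufs7 and Ndufv3) and 0 rose, against 0.986% of all probe sets that fell, and the subunits' median difference was -0.23, against -0.02 over all.

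Ndufs7, the core subunit that holds the last iron-sulfur cluster before ubiquinone, ran from 4.56 to 5.73 in the 8 DM mice of 12 months with a median of 5.53. In the 8 mice given 80 µg it ran from 4.11 to 4.94 with a median of 4.42. All but 1 of the DM mice lay above every 80 µg mouse. The difference was -0.86 ± 0.19 (SE) on the log2 scale, 1.82-fold lower (limma, adjusted p = 0.0273). The values at the other doses lay between, with a median of 5.04 (n = 9) at 1 µg and means of 4.79 ± 0.28 (SD, n = 8) at 10 µg and 4.88 ± 0.46 (SD, n = 7) at 40 µg. The trend was -0.63 ± 0.16 (SE, limma, adjusted p = 0.0231), and both calls stayed when any 1 of the 16 DM and 80 µg mice was left out.

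Ndufv3, a small accessory subunit of the NADH-binding end of the arm, ran from 2.79 to 4.45 in DM mice with a median of 3.97, and from 2.56 to 3.76 after 80 µg with a median of 2.89. The difference was -0.86 ± 0.18 (SE, limma, adjusted p = 0.0273). The mice given 10 µg lay between 2.43 and 3.31, with a median of 3.04, and differed from DM by -0.87 ± 0.18 (SE, limma, adjusted p = 0.0401). A single DM mouse, the lowest of its group, lay within the range of the 10 µg mice. Ndufv3 was the 1 subunit called at 10 µg, where 0.132% of all probe sets fell. It stayed called there in 13 of 16 cases with 1 mouse left out. It was weakest, and not called, without the DM mouse of replicate 7 (limma, adjusted p = 0.142). The count at 10 µg was not stable, running from 0 to 15 over 14 alternatives, the highest with array weights, and from 0 to 7 with 1 mouse left out. The share of all probe sets called in each of these alternatives is not given. The levels did not follow the order of the doses, since 40 µg had a mean of 3.38 ± 0.34 (SD, n = 7) and 80 µg one of 2.99 ± 0.43 (SD, n = 8), although the fitted trend was -0.67 ± 0.15 (SE, limma, adjusted p = 0.0162).

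Ndufa9, an accessory subunit near the joint of both arms that binds a nucleotide cofactor, ran from 4.01 to 5.21 in DM mice with a median of 4.34. After 80 µg it ran from 3.004 to 4.07 with a median of 3.42, so that the groups met only at the edges of their ranges. The difference was -0.94 ± 0.23 (SE), 1.92-fold lower (limma, adjusted p = 0.0488), and the trend was -0.82 ± 0.19 (SE, limma, adjusted p = 0.0187). The difference at 80 µg stayed called in 13 of 16 cases with 1 mouse left out. It was weakest, and not called, without the DM mouse of replicate 3 (limma, adjusted p = 0.159). The means at 1, 10 and 40 µg were 3.94 ± 0.58 (SD, n = 9), 3.59 ± 0.33 (SD, n = 8) and 3.58 ± 0.56 (SD, n = 7).

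**Figure D3:**
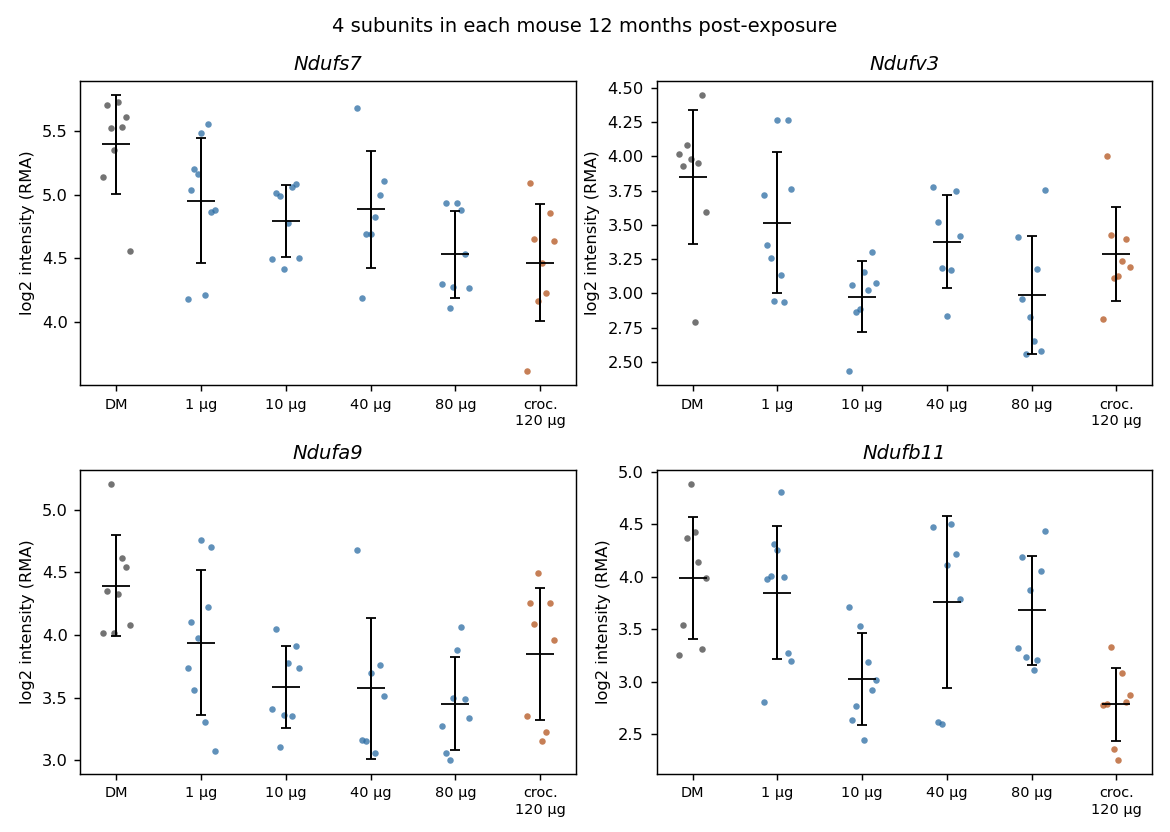
Log2 intensity of Ndufs7, Ndufv3, Ndufa9 and Ndufb11 in each mouse 12 months post-exposure (points), with the group mean and SD (bars). The 80 µg mice lie below most DM mice for Ndufs7, Ndufv3 and Ndufa9, and 7 of the 8 crocidolite mice lie below every DM mouse for Ndufb11.

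The other core subunits moved unequally with MWCNT. Ndufv2, an iron-sulfur protein beside the flavin site, had a trend of -0.66 ± 0.19 (SE, limma, adjusted p = 0.0461), with 3.94 to 4.99 in DM mice and 3.33 to 4.97 in 80 µg mice. Ndufs8, which carries iron-sulfur clusters on the way to ubiquinone, had a trend of -0.62 ± 0.20 (SE, limma, adjusted p = 0.0664), with 5.05 to 6.62 in DM mice and 4.50 to 5.77 in 80 µg mice. For both genes the range of 80 µg mice overlapped that of DM mice over most of its length. Ndufv1, which binds NADH and the flavin, had a trend of -0.11 ± 0.18 (SE, limma, adjusted p = 0.775). Ndufs1, the largest subunit, had one of -0.14 ± 0.18 (SE, limma, adjusted p = 0.726), and Ndufs3, a partner of Ndufs7 and Ndufs8 in the ubiquinone module, one of -0.35 ± 0.15 (SE, limma, adjusted p = 0.163).

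Beyond the core, Ndufa8, an intermembrane-space protein held by disulfide bridges, had a trend of -0.59 ± 0.18 (SE, limma, adjusted p = 0.0573) and differed by -0.67 ± 0.22 (SE, limma, adjusted p = 0.132) at 80 µg. Its dimmer second probe set had a trend of -0.01 ± 0.19 (SE), so the probe sets of this gene disagreed. Ndufa2, a thioredoxin-like subunit of the NADH-binding module, had a trend of -0.50 ± 0.17 (SE, limma, adjusted p = 0.0786). Ndufa6 at 80 µg, a subunit whose fold binds the acyl carrier protein, was the fifth of the members by p, with -0.53 ± 0.21 (SE) and an adjusted p of 0.206. By arm, 3 of 6 core, 3 of 8 peripheral accessory and 1 of 17 membrane arm subunits fell in the trend, the last being Ndufa8 alone. At 80 µg 0 of the 17 were called by limma, with 2 lower at an unadjusted p under 0.05, and the difference between arms was not tested.

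**Figure D4:**
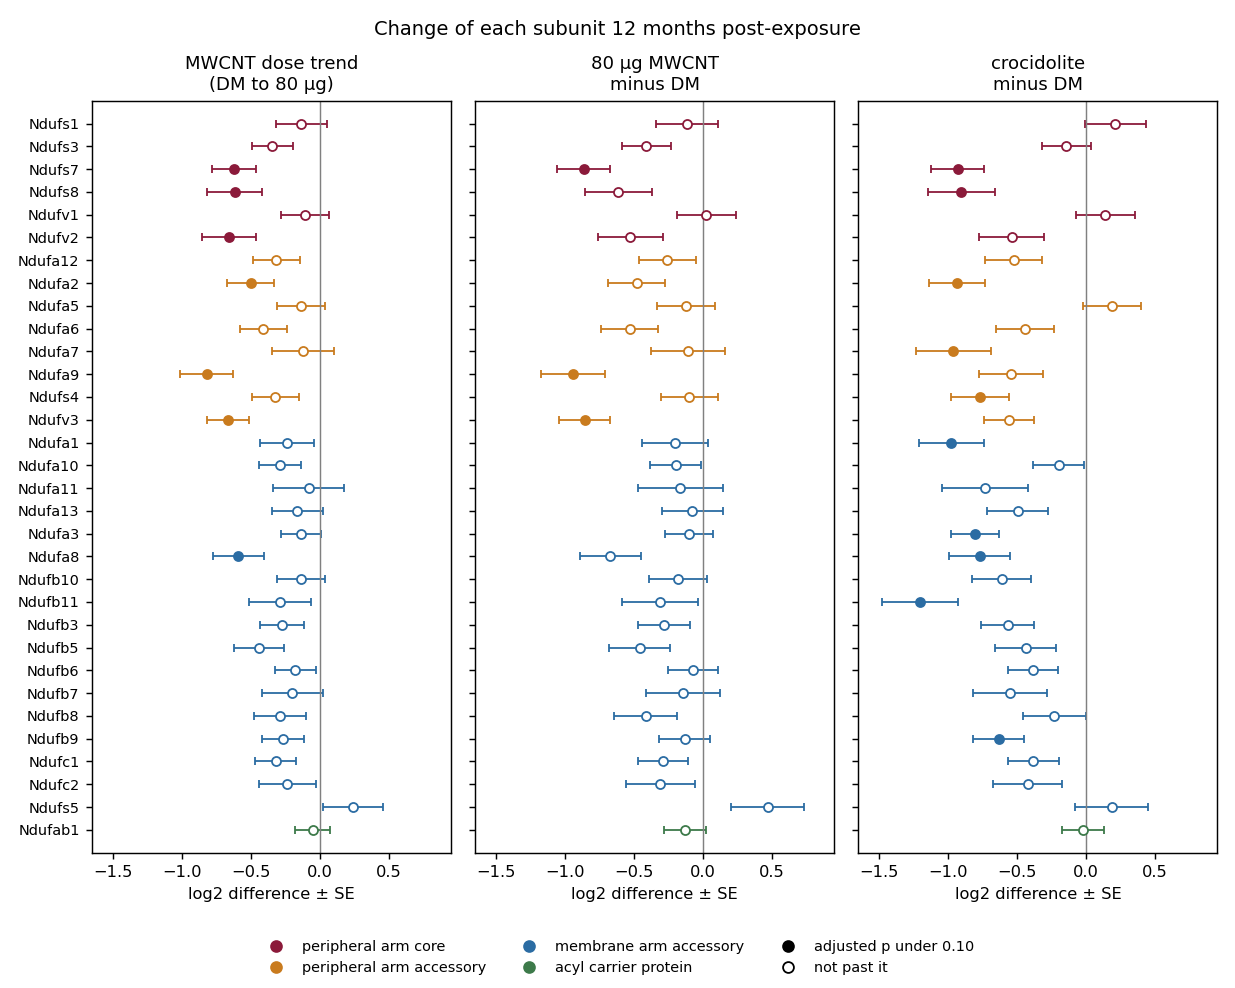
Log2 difference with its SE for each of the 32 subunits at 12 months in the dose trend, for 80 µg MWCNT against DM and for crocidolite against DM, coloured by place in the enzyme. Filled points passed an adjusted p of 0.10, and they number 7, 3 and 10.

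The lower doses bear on the same DM mice, so these values are not independent of each other. At 1 µg and 40 µg, 0 of the 32 subunits were called by limma, where 0% and, among falling ones, 0.0298% of all probe sets were called. At an unadjusted p under 0.05, 4 subunits were lower at 1 µg, 21 at 10 µg, 11 at 40 µg and 10 at 80 µg, and 0 were higher at any dose. The shares of all probe sets at that threshold are not given beside these counts. The median differences were -0.15, -0.46, -0.32 and -0.23. The largest median was thus that of 10 µg and not of the highest dose. Among the 4 MWCNT doses alone, with DM left out, the dose slope at 12 months was called for 0 of the 32 subunits by limma and for 0% of all probe sets. At an unadjusted p under 0.05, Ndufv2, Ndufa9 and Ndufv3 had slopes below 0, led by Ndufv2 at -0.67 ± 0.21 (SE, limma, adjusted p = 0.293).

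Array quality and cell markers moved with the MWCNT result. The median spread of an array's values around the probe set medians was 0.585 in DM mice of 12 months and between 0.593 and 0.672 in the 4 MWCNT groups, and over the mice of all 18 groups the subunit mean and the spread, as deviations from group means, correlated at r = -0.51. With the spread as a covariate, 2 of 32 subunits (Ndufa9 and Ndufv3) stayed called in the trend and 0 at 80 µg. The fitted differences at 80 µg kept their sign over 11 alternatives, this one included, and ran from -0.97 to -0.75 for Ndufa9, from -0.90 to -0.72 for Ndufv3 and from -0.95 to -0.61 for Ndufs7. A second quantile normalization left 2 in the trend and 1 at 80 µg, and the trend on the dose in µg called 0. Without the DM mouse of replicate 7, 4 of the 32 were called in the trend. Of 5 B cell markers 5 fell in the trend, and of 5 T cell markers 3 fell. The mean of the B cell markers ran from 7.40 to 8.24 in DM mice and from 6.80 to 7.53 at 80 µg, and that of the T cell markers from 4.88 to 5.71 and from 3.97 to 5.09. Of 5 natural killer cell and 5 monocyte markers 1 each fell in the trend, and 0 of 6 neutrophil, 0 of 5 platelet and 0 of 3 erythroid markers were called. The part of these cells in the subunit levels was not tested.

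Crocidolite mice of 12 months had lower levels of subunits of both arms. Of the 32, 10 fell, 0 rose and 28 had a value below 0, against 2.02% of all probe sets that fell, or 3.52% of those above the olfactory receptor mark. They were 2 core subunits (Ndufs7 and Ndufs8), 3 peripheral accessory subunits (Ndufa2, Ndufa7 and Ndufs4) and 5 of the membrane arm (Ndufa1, Ndufa3, Ndufa8, Ndufb9 and Ndufb11). All 10 also differed by at least 1.5-fold. The median difference was -0.54, against -0.07 over all probe sets tested. At an unadjusted p under 0.05, 23 of the 32 were lower, a count given without the share of all probe sets at that threshold.

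Ndufb11, a small membrane arm subunit encoded on the X chromosome, ran from 3.26 to 4.89 in DM mice with a median of 4.07, and from 2.26 to 3.33 in crocidolite mice with a median of 2.80. The highest crocidolite mouse lay above the lowest DM mice and the others lay below all of them. The difference of -1.21 ± 0.28 (SE), 2.31-fold, was the largest among the members in this comparison (limma, adjusted p = 0.0114). Ndufa1, another X-encoded subunit of the membrane arm, ran from 7.02 to 7.81 in DM mice with a median of 7.55, and from 5.66 to 7.34 after crocidolite with a median of 6.49. It differed by -0.98 ± 0.24 (SE, limma, adjusted p = 0.0195).

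The brightest members fell as well. Ndufa3, a single-span membrane subunit, was 9.47 to 10.31 in DM mice with a median of 10.19 and 8.52 to 9.92 in crocidolite mice with a median of 9.31, a difference of -0.81 ± 0.17 (SE, limma, adjusted p = 0.00831). Ndufb9, a membrane arm subunit of the LYR protein family, was 8.65 to 9.31 in DM mice with a median of 9.09 and 7.57 to 9.09 in crocidolite mice with a median of 8.52, a difference of -0.63 ± 0.18 (SE, limma, adjusted p = 0.0585). For both genes the upper part of the crocidolite range lay inside that of DM.

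In the peripheral arm, Ndufs7 ran from 3.61 to 5.09 after crocidolite with a median of 4.55, and differed from DM by -0.93 ± 0.19 (SE, limma, adjusted p = 0.00714), the smallest p among the members. It was also the only subunit called in all 3 of the trend, 80 µg and crocidolite comparisons, which share the DM mice. Ndufs8 differed by -0.90 ± 0.24 (SE, limma, adjusted p = 0.0386). Ndufs4, a late-joining subunit whose loss in mice causes a fatal encephalopathy, was 5.88 to 6.32 in DM mice and 4.61 to 6.25 after crocidolite, a difference of -0.77 ± 0.21 (SE, limma, adjusted p = 0.0391). DM mice were close together for this gene, with an SD of 0.15, and crocidolite mice spread over a wider range with an SD of 0.50.

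Ndufa2 differed by -0.94 ± 0.21 (SE, limma, adjusted p = 0.00875), Ndufa7, a subunit of the matrix arm, by -0.96 ± 0.27 (SE, limma, adjusted p = 0.0501), and Ndufa8 by -0.77 ± 0.22 (SE, limma, adjusted p = 0.0574). The second probe set of Ndufa8 had a difference of 0.04 ± 0.23 (SE). Ndufa11 and Ndufa12 also had a dimmer second probe set, at 0.09 ± 0.32 (SE) and 0.25 ± 0.19 (SE), where their brighter ones had -0.73 ± 0.31 (SE) and -0.53 ± 0.21 (SE), none of them called. The 3 core subunits Ndufv1, Ndufs1 and Ndufs3 had values of 0.14 ± 0.21 (SE), 0.21 ± 0.22 (SE) and -0.14 ± 0.18 (SE), and Ndufv2, the other core subunit, had -0.54 ± 0.24 (SE, limma, adjusted p = 0.250). The 4 subunits with a value above 0 were Ndufs1, Ndufa5, Ndufs5 and Ndufv1, none of them called.

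The crocidolite calls moved with a few mice and with array quality. The crocidolite mouse of replicate 1 had the widest spread of its group at 0.975, a median correlation with the other arrays of 0.750 and the lowest subunit mean of its group, at 3.61, and without it 4 of the 32 subunits were called. Without replicate 4, whose subunit mean was 3.62, 5 were called. With the array spread as a covariate the count was 5, without all arrays that correlated under 0.85 with the others it was also 5, and the methods' analysis of variance called 1 with crocidolite and 2 at 80 µg. With array weights 14 were called with crocidolite and 15 at 10 µg, so the order of the exposures by count depended on the setting. The share of all probe sets called under each of these settings is not given. Whether the counts changed apart from that share was not tested. Ndufa2, Ndufa3, Ndufb11 and Ndufs7 stayed called without any 1 of the 16 mice in turn. Ndufa8, Ndufb9, Ndufa7, Ndufs4 and Ndufa1 stayed called in 10, 11, 12, 14 and 15 of these 16 cases.

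Split by array number, which stands in for an unknown processing order, the median difference of the subunits with crocidolite was -0.63 on arrays 1 to 96 (7 DM and 6 crocidolite mice) and -0.20 on arrays from 97 up (2 and 2 mice). The DM mouse of replicate 5 was run in both parts and counts in each, so the parts are not independent. On the earlier and later arrays the medians were -0.45 and -0.16 for the trend and -0.34 and -0.10 for 80 µg. The medians were thus below 0 in both parts of the run and smaller in size in the later one. With that split as a fixed term in the fit, each of the 7, 3 and 10 subunits stayed called.

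Whether the 12-month values reflected the DM mice was read from comparisons among DM mice and from comparisons without them. In DM mice from 6 to 12 months, 1 of the 32 subunits rose and 0 fell, against 0.068% of all probe sets that rose. This was Ndufs7, from 4.59 ± 0.27 (SD, n = 8) to 5.40 ± 0.39 (SD, n = 8), a difference of 0.81 ± 0.19 (SE, limma, adjusted p = 0.0785), which stayed called in 6 of 16 cases with 1 mouse left out and had an adjusted p of 0.403 by limma without the DM mouse of replicate 6 at 6 months. The median of the subunits was 0.32, against 0.03 over all probe sets. At an unadjusted p under 0.05, 13 were higher, again without the share of all probe sets at that threshold. In the same comparison 0 of the cell markers were called. At an unadjusted p under 0.05, 4 of 5 B cell markers were higher, and the median of the 5 was 0.82. The medians of the monocyte, T cell and neutrophil markers were 0.48, 0.44 and 0.39. Those of the natural killer cell and platelet markers were 0.11 and 0.10, and that of the erythroid markers was -0.37. The mean of the B cell markers ran from 6.03 to 7.84 at 6 months and from 7.40 to 8.24 at 12 months, and the part of these cells in the rise was not tested. From 1 to 12 months, 0 of the 32 were called by limma, where 0.383% of all probe sets rose, while 7 were higher and 1 lower at an unadjusted p under 0.05. From 1 to 6 months, 0 of the 32 were called by limma, where 3.94% of all probe sets changed in either direction, and 4 were lower and 1 higher at an unadjusted p under 0.05.

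Crocidolite mice of 12 months also differed from crocidolite mice of 6 months, a comparison that uses no DM mouse. Here 6 of the 32 subunits fell and 0 rose, against 2.68% of all probe sets that fell. The 6 were Ndufa1, Ndufa2, Ndufa3, Ndufa7, Ndufb9 and Ndufb11, each among the 10 that differed from DM, though both comparisons use the crocidolite mice of 12 months. Ndufa1 had the largest difference, from 7.56 ± 0.39 (SD, n = 9) to 6.54 ± 0.67 (SD, n = 8), which is -1.02 ± 0.23 (SE, limma, adjusted p = 0.0169). Ndufs7 was 4.77 ± 0.29 (SD, n = 9) at 6 months and 4.46 ± 0.46 (SD, n = 8) at 12 months, and was not called. Without the crocidolite mouse of replicate 1, 0 of the 6 stayed called. From 1 to 12 months after crocidolite, 0 of the 32 were called by limma, where 0.00425% of all probe sets fell, and 5 were lower at an unadjusted p under 0.05.

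Mice given 80 µg were compared between months in the same way, and their change was not tested against that of crocidolite mice. From 6 to 12 months 0 of the 32 subunits were called by limma and 0% of all probe sets, with 0 lower and 1 higher at an unadjusted p under 0.05. From 1 to 12 months, 2 fell and 1 rose, against 13.3% of all probe sets that fell and 5.03% that rose, a share of members no greater than that background. Ndufs1 fell by 0.64 on the log2 scale (SE 0.22, limma, adjusted p = 0.0421) and Ndufv3 by 0.54 (SE 0.18, limma, adjusted p = 0.0377). The rise of Ndufs5, a dim probe set, by 0.64 ± 0.26 (SE, limma, adjusted p = 0.0951), was not called without the 80 µg mouse of replicate 5 (adjusted p = 0.404). In the same comparison 3 of 5 B cell, 4 of 5 T cell, 4 of 5 natural killer cell, 2 of 6 neutrophil and 1 of 5 monocyte markers fell. The mean of the T cell markers ran from 4.87 to 6.07 at 1 month and from 3.97 to 5.09 at 12 months, and that of the natural killer cell markers from 4.44 to 5.70 and from 2.84 to 4.67. Their part in the subunit levels was not tested.

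The effect of each material was also compared between months by an F test of the difference itself. For 80 µg, 0 of the 32 subunits were called by limma and 0% of all probe sets, with 5 past an unadjusted p of 0.05. For crocidolite 0 of the 32 were called, where 0.0553% of all probe sets were. An unadjusted p of 0.05 was passed by 14 of the 32, a count without the share of all probe sets beside it. Over 12 alternatives the crocidolite count ran from 0 to 4, the highest with array weights. The larger number of calls at 12 months than at 1 or 6 months is therefore not an established difference between months for any single subunit in this fit. Crocidolite and 80 µg MWCNT of 12 months differed directly in 1 of the 32 subunits, against 0.191% of all probe sets that were lower with crocidolite. This was Ndufa3, at 9.25 ± 0.47 (SD, n = 8) with crocidolite and 9.96 ± 0.45 (SD, n = 8) with 80 µg, a difference of -0.70 ± 0.17 (SE, limma, adjusted p = 0.0880) that stayed called in 8 of 16 cases with 1 mouse left out. At 1 and 6 months 0 of the 32 differed between the materials by limma, with 0% of all probe sets called at both and at most 3 subunits past an unadjusted p of 0.05.

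None of the 8 assembly factors was called against DM at any month. At 12 months with crocidolite the lowest p was that of Ndufaf6, which is needed for complex I assembly in human cells, at -0.44 ± 0.15 (SE, limma, adjusted p = 0.130). Ndufaf1, a factor of the membrane arm, had -0.37 ± 0.20 (SE). Ndufaf3 and Ndufaf4, which act as a pair on the ubiquinone module, had -0.41 ± 0.22 (SE) and -0.32 ± 0.19 (SE). Ndufaf8, a partner of Ndufaf5 in human cells, had -0.44 ± 0.24 (SE), and Ndufaf7, a methyltransferase that acts on complex I in human cells, had 0.23 ± 0.24 (SE). Ndufaf2, a relative of Ndufa12, had -0.04 ± 0.21 (SE), and Ndufaf5, which hydroxylates Ndufs7 in human cells, had -0.01 ± 0.18 (SE). In the trend, Ndufaf8 had the lowest p of the 8, at -0.48 ± 0.20 (SE, limma, adjusted p = 0.152). The median of the 8 was -0.35 with crocidolite and -0.12 in the trend. The 1 call among them was Ndufaf5 in DM mice, which fell by 0.70 from 1 to 6 months (SE 0.19, limma, adjusted p = 0.0458), where 3.94% of all probe sets changed in either direction. Its level of 1.29 lay under the dim mark of 1.51.

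Ndufa4, found to be a subunit of cytochrome c oxidase despite its name, fell with crocidolite. At 12 months it was 8.19 in the mean of DM mice and 7.36 in that of crocidolite mice, a difference of -0.83 ± 0.20 (SE, limma, adjusted p = 0.0181). It also fell from 6 to 12 months after crocidolite, by 0.74 (SE 0.19, limma, adjusted p = 0.0384). After 80 µg the difference was -0.22 ± 0.20 (SE, limma, adjusted p = 0.657). Ndufa4l2, its relative known for induction by hypoxia, was not called in any comparison and had a dim probe set.

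Other genes of the respiratory chain were read from fixed lists. Of 37 nuclear subunits of complexes II to V and cytochrome c, 9 fell with crocidolite at 12 months and 0 rose, with a median of -0.45. Among them were Cox5a, a subunit of cytochrome c oxidase, at -1.04 ± 0.23 (SE, limma, adjusted p = 0.00875), and Sdhb, the iron-sulfur subunit of complex II, at -0.77 ± 0.22 (SE, limma, adjusted p = 0.0594). In the MWCNT trend 7 of the 37 fell and 0 rose, with a median of -0.29, led by Atp5g2, a proton channel subunit of ATP synthase, at -0.52 ± 0.16 (SE, limma, adjusted p = 0.0527). The complex I subunits had medians of -0.54 and -0.28 in the same comparisons. Of 10 other genes of complex I assembly, 3 fell in the trend, namely Aifm1, Tmem126b and Timmdc1, between -0.55 and -0.49, and 0 of 10 with crocidolite. Of 9 regulators of mitochondrial genes, among them Nrf1, Gabpa, Yy1 and Ppargc1a, 0 were called in either comparison by limma, with 3 lower in the trend and 1 lower and 1 higher with crocidolite at an unadjusted p under 0.05.

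The mitochondrially encoded subunits did not share the sign of the nuclear ones with crocidolite. All 7, ND1 to ND6 with ND4L, had values above 0 at 12 months, from 0.17 for ND1 to 0.72 for ND3 with a median of 0.36, and 0 were called by limma. At an unadjusted p under 0.05, ND4L with 0.46 ± 0.22 (SE, adjusted p = 0.295) and ND5 with 0.44 ± 0.20 (SE, adjusted p = 0.264) were higher. From 6 to 12 months after crocidolite all 7 were higher at an unadjusted p under 0.05 and 0 were called, with a median of 0.45. In the MWCNT trend their median was -0.02, with 6 of 7 below 0. Against DM at 12 months, 1 of the 7 lay below 0 at 10 µg, where their median was 0.10. At 1, 40 and 80 µg the numbers below 0 were 7, 6 and 6. With crocidolite at 1 month 0 of the 7 lay below 0, with a median of 0.28, and the nuclear subunits had a median of 0.01. With crocidolite at 6 months all 7 lay below 0, with a median of -0.21, and the nuclear median was 0.09. The difference between the nuclear and mitochondrial genes was not tested.

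**Figure D5:**
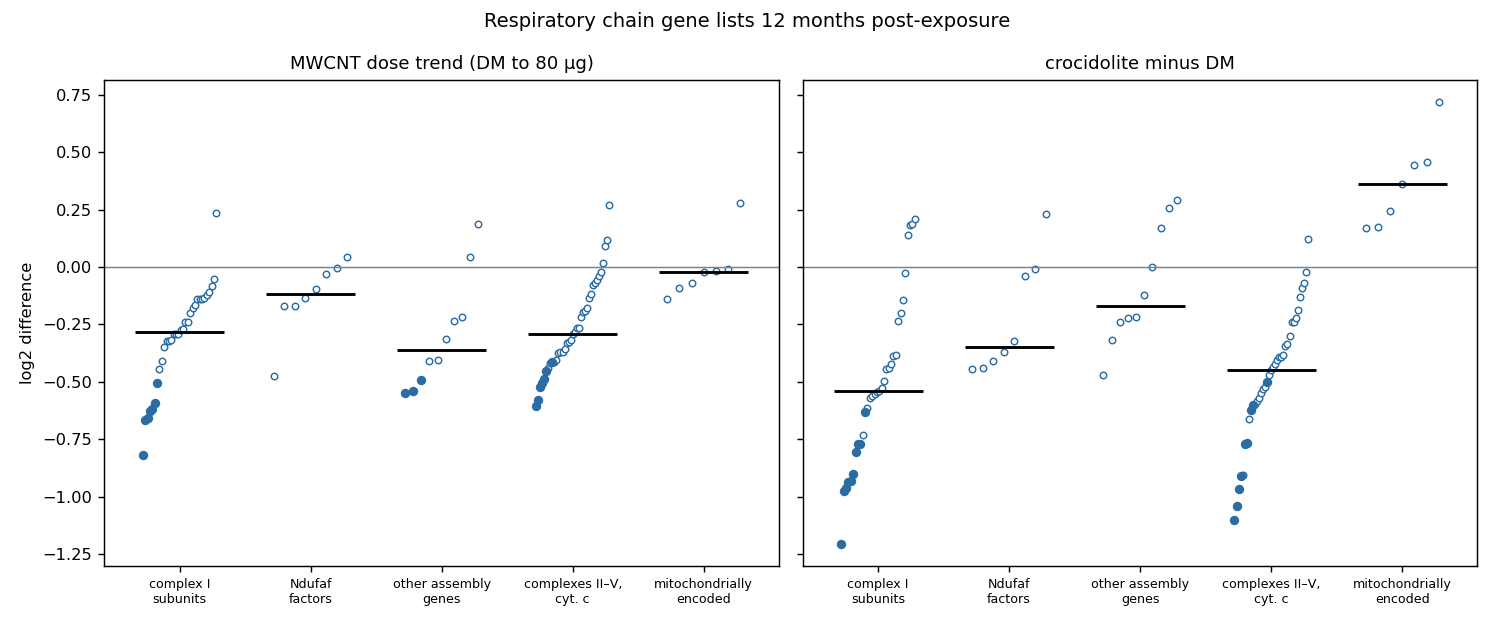
Log2 differences at 12 months of the genes of 5 respiratory chain lists, in the MWCNT dose trend and for crocidolite against DM, with each list's median (black line) and filled points past an adjusted p of 0.10. With crocidolite the medians are -0.54 for complex I subunits, -0.45 for complexes II to V and 0.36 for the mitochondrially encoded subunits.

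Beside the crocidolite values, 3 of 5 platelet markers fell, among them Pf4, a platelet chemokine, at -0.80 ± 0.17 (SE, limma, adjusted p = 0.00831), and Gp9, a platelet surface protein, at -0.78 ± 0.15 (SE, limma, adjusted p = 0.00364). The mean of the 5 ran from 10.14 to 10.49 in DM mice and from 8.79 to 10.26 with crocidolite. Of 3 erythroid markers 1 fell, and their mean ran from 7.19 to 8.11 in DM mice and from 6.52 to 8.15 with crocidolite. Of 5 natural killer cell markers 1 fell, and 0 of 6 neutrophil, 0 of 5 monocyte, 0 of 5 B cell and 0 of 5 T cell markers were called. From 6 to 12 months after crocidolite, 4 of 5 platelet and 2 of 3 erythroid markers fell. Markers of lung epithelium were near the dim mark, 4 of 5 of them under it, and those of skeletal muscle lay at or under 2.44. The part of these cells in the subunit levels was not tested.

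The subunits varied together among mice of the same group. Over the mice of all 18 groups and as deviations from the group means, the 496 pairs of subunits had a median correlation of 0.27, with a range of -0.45 to 0.82, and 89.5% of the pairs were above 0. The pairs share arrays and their quality, so the correlations describe these arrays. The closest pair was Ndufa3 and Ndufb9 at 0.82, followed by Ndufa1 and Ndufb9 at 0.81 and Ndufa1 and Ndufa3 at 0.76, which are the bright membrane arm subunits. In the peripheral arm, Ndufs7 and Ndufs8 correlated at 0.72. The 2 genes called at 80 µg with Ndufs7 followed the others less, with correlations to the mean of the other subunits of 0.48 for Ndufa9 and 0.18 for Ndufv3, against 0.70 for Ndufs7.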

How the data were processed

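Whole-blood RNA of 139 mice was hybridized to 144 Mouse Gene ST 2.1 arrays. The authors deposited log2 intensities for 41345 probe sets, made by RMA (background correction, quantile normalization and summary over probes); per the labels the tools were oligo and limma, with versions not given in the sources used here. Such normalization equalizes arrays, so a change shared by most genes cannot be seen. Probe sets with 1 gene symbol (23521) were kept, and both arrays of 5 mice run again were averaged.

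A linear model with the 18 groups as terms was fitted with limma 3.58.1 in R 4.3.3 (empirical Bayes, Benjamini-Hochberg over 23521 probe sets), with an adjusted p under 0.10 as the call. The dose trend was a line on the logarithm of the dose in µg plus 1 through the means of DM and the 4 doses, given as the change from DM to 80 µg. The code was tested on simulated data. Members named are those called in any comparison, the 5 of smallest p in the 12-month trend, 80 µg and crocidolite comparisons, the 3 brightest and 3 dimmest, each core subunit and each Ndufaf gene. Members and lists were chosen with earlier results of these data known. Groups came from the labels, 2 of which spell the material MWNCT. The number of arrays limits precision. Alternatives covered normalization, array quality, repeated mice, the samples fitted, dim probe sets, thresholds, the methods' analysis of variance and mice left out in turn. Leaving mice out was added after seeing the data for the 10 µg comparison, crocidolite against 80 µg and the comparisons between months. Promoters were RefSeq sequence of GRCm38.p6, matched by symbol for 37 of 42 members.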

Additional observations from a re-analysis of the deposited data

Results flagged for a closer look

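Among 120 sets of values examined for a single mouse apart from its group, 6 were found, and chance alone gives about 1 in 20. The subunit mean of the 1 µg mouse of replicate 1 at 6 months was 4.67, the next mouse being at 4.25. Ndufa2 was lowest in the crocidolite mouse of replicate 1 at 12 months, at 3.41 against 4.42 in the next, the mouse with the widest array spread. Ndufa3 was lowest in the 10 µg mouse of replicate 5 at 12 months, at 9.49 against 9.75. Ndufa9 was highest in the 40 µg mouse of replicate 1 at 12 months, at 4.68 against 3.76. The dim probe set of Ndufs5 was highest in the 1 µg mouse of replicate 1 at 12 months, at 3.36 against 1.65, and in the 80 µg mouse of replicate 5 at 12 months, at 3.76 against 2.11. Without the last of these mice the rise of Ndufs5 from 1 to 12 months at 80 µg was not called. Of 17 called members examined, 0 had an effect that differed between months by the F test.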

How the results depend on the processing

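Counts are of the 32 subunits called. They are given without the share of all probe sets called under the same alternative, so they describe how the calls moved and not an excess over that share. No count at 1 or 6 months against DM, nor any at 1 or 40 µg at 12 months, left 0 under any of 14 alternatives, and no median or called member changed sign. With a second quantile normalization the count was 1 for 80 µg, 2 for the trend, 5 for crocidolite against 80 µg, 1 and 3 for DM of 12 months against 1 and 6 months, 1 for 80 µg of 12 against 1 month, and 1 for the crocidolite effect by month. With only the compared groups fitted it was 4 for 10 µg, 3 for the trend, 0 for crocidolite against 80 µg, 1 for DM of 6 against 1 month, 1 and 0 for DM of 12 against 1 and 6 months, 1 for 80 µg of 12 against 1 month and 0 for crocidolite of 12 against 6 months. With array weights it was 15 for 10 µg, 0 for crocidolite against 80 µg, 4 and 3 for DM of 12 against 1 and 6 months, and 4 for the crocidolite effect by month. Without the low-correlation arrays it was 0 for 10 µg, 5 for crocidolite, 3 for the trend, 6 for crocidolite against 80 µg and 1 for crocidolite of 12 against 6 months. With the array spread as a covariate it was 0 for 10 and for 80 µg, 5 for crocidolite, 2 for the trend, 4 for crocidolite against 80 µg, 1 for DM of 6 against 1 month, 4 for DM of 12 against 6 months, and 1 each for 80 µg of 12 against 1 month and crocidolite of 12 against 6 months. With the array number split as a fixed term it was 5 for 10 µg, 0 for crocidolite against 80 µg and 2 for DM of 12 against 6 months. For 10 µg and DM of 12 against 6 months it was 5 and 0 with the first array only of repeated mice, 8 and 3 with each array its own sample, and 4 and 4 without dim probe sets. The crocidolite effect by month gave 1 in each of the last 2 settings. With all probe sets tested it was 0 for crocidolite against 80 µg and for DM of 12 against 6 months. At an adjusted p under 0.05 it was 4 for the trend, 0 for crocidolite against 80 µg, 0 for DM of 12 against 6 months and 3 for crocidolite of 12 against 6 months. The methods' analysis of variance gave 0 for 10 µg and 1 for crocidolite, and the dose in µg gave 0 for the trend. A stricter threshold can only lower a count by construction, and for the other settings the cause of a changed count was not tested.

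Leaving out each mouse in turn gave 2 to 4 subunits at 80 µg, 4 to 8 in the trend (4 without the DM mouse of replicate 7) and 4 to 15 with crocidolite (4 and 5 without its replicates 1 and 4). The medians ran from -0.30 to -0.19, from -0.32 to -0.24 and from -0.64 to -0.46. For the comparisons where leaving mice out was chosen after seeing the data, the counts were 0 to 7 for 10 µg, 0 to 5 for crocidolite against 80 µg, 0 to 8 for crocidolite of 12 against 6 months (0 without its 12-month replicate 1), 1 to 4 for 80 µg of 12 against 1 month (1 without the 1-month mouse of replicate 4) and 0 to 3 for DM of 12 against 6 months. Within arrays from 97 up the crocidolite median was -0.20. No paired analysis was possible because the labels give no replicate number that pairs mice across groups. Whether dim probe sets near the olfactory receptor mark could show small differences was not tested.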
